A study of Mus musculus with 2 samples.

Results

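Endothelial tip-cell genes are those read as marks of the leading cell of a vascular sprout, and 7 of them were followed here by their gene symbols, *Esm1*, *Apln*, *Aplnr*, *Kcne3*, *Cxcr4*, *Adm* and *Pcdh17*. All 7 were found among the 32285 genes of the count matrices, each as 1 row. Their unique molecular identifiers (UMIs, each marking 1 captured mRNA molecule) were counted in the endothelial cells of control and *Maf* LSEC-KO livers.

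A growing capillary is headed by a tip cell, which migrates along a gradient of vascular endothelial growth factor, and is followed by stalk cells, which divide and form the lumen. Delta-like 4 on the tip cell activates Notch in its neighbours and holds them in the stalk state, so that both states are usually told apart by the transcripts that this exchange turns up or down. The sinusoids of the healthy adult liver are lined by liver sinusoidal endothelial cells (LSECs), which are quiescent, fenestrated and without a continuous basement membrane, and in which the transcription factor c-Maf, the product of *Maf*, is abundant.

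Each condition was 1 library of 3′ single-cell RNA sequencing made from the pooled liver tissue of 3 mice, with endothelial cells enriched by CD146 magnetic beads after a density gradient. *Maf* LSEC-KO mice carried 1 *Clec4g-iCre* transgene, which is active in LSECs from late fetal life, together with *Maf* fl/fl. Control mice, which the labels call WT, were littermates without the transgene whose *Maf* alleles were fl/fl or fl/wt. The mice of the study were adults of both sexes, and the age of the pooled animals is not given in the sources used here. *Xist* had 3 UMIs in the control and 14 UMIs in the *Maf* LSEC-KO endothelial cells, while the Y-linked *Ddx3y* had 4354 and 4346. By these transcripts the cells of both pools were male or nearly all male. With 1 library per condition no difference between the conditions could be tested, a difference between animals and an effect of genotype cannot be told apart, and every interval below is a 95% interval that covers counting error only.

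The endothelial clusters held 4262 cells in the control and 4433 cells in the *Maf* LSEC-KO library, with a median of 8540.5 and 14242 UMIs per cell, and 5 cell barcodes occurred in both. All 14 endothelial markers had a UMI in over 50% of these cells in both libraries, whereas this held for 10 of 10 LSEC markers in the control and 7 of 10 in the *Maf* LSEC-KO cells, whose summed level fell from 20233 to 6425 UMIs per 1000000 (CPM). *Maf* itself had 3390 CPM in the control and 95.9 CPM in the *Maf* LSEC-KO cells. Cells with a UMI of the vessel marker *Vwf* made up 3.78% and 26.7%, and cycling cells, with UMIs of at least 3 of 10 cycle genes, 1.99% and 20.9%. Markers of other cell types, summed over each list of 10 genes, were at 71.5 and 119 CPM for macrophages, at 95.2 and 256 CPM for monocytes and neutrophils and at 30.9 and 141 CPM for stellate cells. The lists for B cells, T and NK cells and cholangiocytes were also higher in the *Maf* LSEC-KO cells, at no more than 32.1 CPM. Higher in the control were 10 hepatocyte markers (169 and 101 CPM) and 6 erythroid markers (1453 and 29.7 CPM). The part of all these markers in the results below was not tested except where cells were left out.

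The 7 protein-coding genes lie apart in the mouse genome (build mm10). *Esm1* is at chr13:113209659-113218098, *Pcdh17* at chr14:84443563-84539002, *Aplnr* at chr2:85136225-85139923, *Cxcr4* at chr1:128588199-128592293 and *Apln* at chrX:48025146-48034853. Chromosome 7 holds *Kcne3* at chr7:100176502-100184869 and *Adm* at chr7:110627661-110629820. RefSeq promoter sequences, of 250 bases before and 50 bases after a transcript start on GRCm38.p6, were matched for 6 of the 7 genes with 7 entries, and none for *Aplnr*. The 250 bases before the start are shown for *Esm1*, a common mark of tip cells, and for *Pcdh17*, the one of the 7 with the most UMIs, 5′ to 3′ on the plus strand. These 250 bases hold none of the motifs named after them and so have no capitals.
*Esm1* promoter, chr13:113209409-113209658: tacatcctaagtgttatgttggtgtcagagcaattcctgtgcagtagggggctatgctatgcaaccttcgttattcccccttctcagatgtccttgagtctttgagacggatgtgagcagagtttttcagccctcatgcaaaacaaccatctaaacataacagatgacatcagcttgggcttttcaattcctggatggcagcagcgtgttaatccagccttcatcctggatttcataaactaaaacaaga
*Pcdh17* promoter, chr14:84443313-84443562: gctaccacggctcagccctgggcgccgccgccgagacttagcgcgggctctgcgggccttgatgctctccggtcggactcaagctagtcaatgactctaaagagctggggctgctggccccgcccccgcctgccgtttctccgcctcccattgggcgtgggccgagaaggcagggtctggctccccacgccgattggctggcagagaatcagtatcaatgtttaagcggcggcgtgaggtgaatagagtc
The motifs were short and were searched on both strands of the 300 bases: TGCTGA, the half-site that Maf proteins bind, TGANTCA, the core of an AP-1 site, and ACGTG, the core of a hypoxia response element. These letters occurred in 19.5%, 7.81% and 19.6% of all 32851 promoters, and the 3 matches shown next do not overlap each other. The *Esm1*, *Apln*, *Cxcr4* and *Adm* windows and 1 of the 2 *Kcne3* windows held none of them. The other *Kcne3* window held TGAATCA 37 bases and ACGTG 140 bases before its start, and the *Pcdh17* window held TCAGCA, the reverse of the Maf half-site, 3 bases after its start. The matches are shown in capitals with the bases around them.
*Kcne3*, chr7:100176624-100176648, AP-1 core: aaggtggtaTGAATCAgagtttctg
*Kcne3*, chr7:100176520-100176544, hypoxia core: ccttgtggcaACGTGaactacagag
*Pcdh17*, chr14:84443556-84443580, Maf half-site: tagagtcagTCAGCAagagacgctg
A match is a run of letters and was not tested as a binding site.

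Of the 7 genes, 6 were at least 2-fold higher in *Maf* LSEC-KO than in control endothelial cells, namely *Aplnr*, *Cxcr4*, *Kcne3*, *Esm1*, *Pcdh17* and *Adm*, in falling order of the ratio. None was lower, and *Apln* stayed below 2-fold. Of the 10526 genes that reached 5 CPM in 1 library or both, 11.5% were higher and 4.44% were lower by at least 2-fold. With a limit of 1.5-fold all 7 members were higher, beside 22.1% of these genes higher and 9.76% lower, and with a limit of 4-fold 4 members were, beside 4.38% and 1.41%. Of genes that reached 50 CPM, 7.27% were higher and 5.32% lower by at least 2-fold. Scaling by the UMIs of all genes gave 9.45% and 6.20% instead and moved the median log2 ratio of all genes from 0.14 to −0.03, a shift smaller than the log2 ratio of any of the 7 genes. The 6 genes passed the minimum of 5 CPM, and 3 of them, *Aplnr*, *Kcne3* and *Cxcr4*, passed it only through the *Maf* LSEC-KO library. *Apln* did not pass it in either library.

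**Figure D1:**
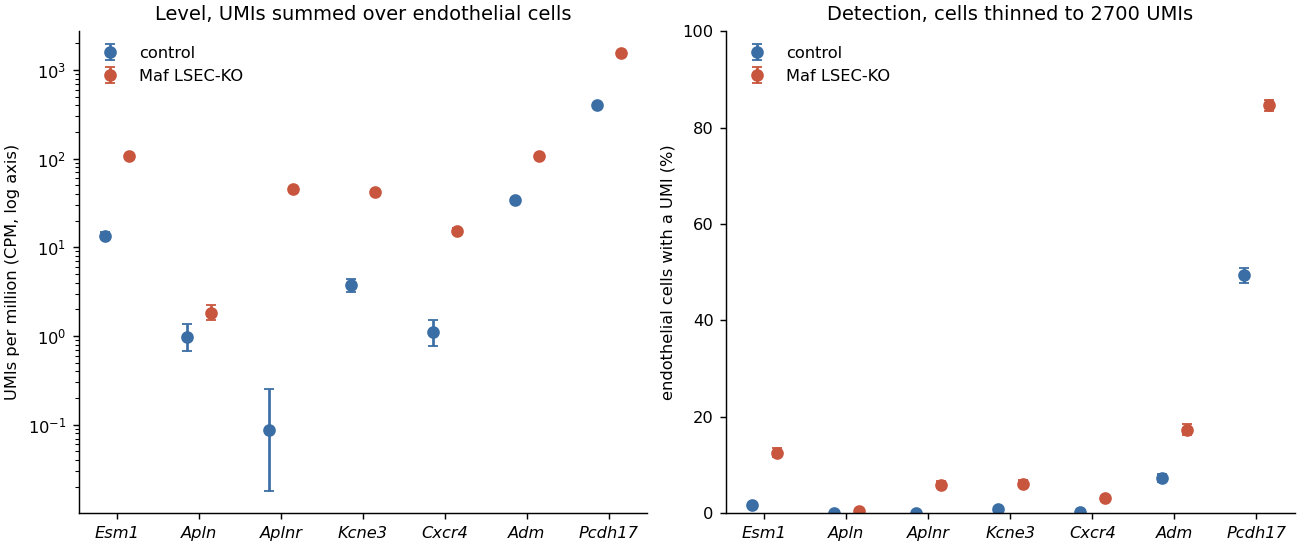
Levels in CPM on a log axis (left) and the share of endothelial cells with a UMI after each cell was thinned to 2700 UMIs (right), for the 7 genes in the control (blue) and *Maf* LSEC-KO (red) library, with bars for exact 95% intervals of counting error. *Aplnr* shows the widest distance on the left, and the intervals of *Apln* overlap in the right panel.

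*Esm1* encodes endocan, a proteoglycan secreted by endothelial cells, which is a common mark of tip cells. It had 467 UMIs, or 13.5 CPM (12.3 to 14.8), in the control and 6125 UMIs, or 106 CPM (104 to 109), in *Maf* LSEC-KO endothelial cells. Its level was thus 7.87 times as high, 2.98 on the log2 scale (2.84 to 3.11). Cells with a UMI numbered 132 (3.10%) among control and 1386 (31.3%) among *Maf* LSEC-KO endothelial cells. After each cell had been thinned to 2700 UMIs, which removes the difference in depth, 1.58% (1.21 to 2.03) and 12.5% (11.5 to 13.6) of the cells had a UMI, against 0.535% and 3.10% of macrophage-like cells, which should lack the transcript and whose median depths were 5136 and 4558 UMIs. In the control the transcript sat in few cells, with 75 UMIs in the highest cell and at least 5 UMIs in 26 cells, whereas 363 *Maf* LSEC-KO cells had at least 5. The control value rested largely on 1 subcluster of 910 cells led by interferon-induced genes such as *Cxcl10*, *Zbp1* and *Irf7*, which held 75.8% of the control UMIs. Without the interferon-led subclusters of both libraries the log2 ratio was 4.70.

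*Apln* encodes apelin, a secreted peptide of sprouting endothelium, and *Aplnr* its receptor, a G protein-coupled receptor that is prominent in venous and remodelling vessels. *Apln* was rare in both libraries, with 34 UMIs (0.984 CPM, 0.681 to 1.38) in 18 control cells. In *Maf* LSEC-KO endothelium 50 cells held 106 UMIs (1.84 CPM, 1.51 to 2.23). The log2 ratio of 0.90 (0.33 to 1.51) lay under the 2-fold limit. It rested on few cells: 51 of the 106 UMIs were in 1 *Maf* LSEC-KO subcluster of 211 cells led by *Dcn*, *C3*, *Ccl21a* and other stellate-cell and lymphatic genes, and without that subcluster the log2 ratio was 0.02. In the control, 12 of the 34 UMIs were in subcluster 6 (6.75 CPM), 174 cells led by vessel genes with *Dcn* and *Col3a1* among the higher genes. These control cells were kept in for the value of 0.02, which left out *Maf* LSEC-KO cells only. With each cell thinned the log2 ratio was 3.14, on 3 control cells with a UMI. The ratio of 1.87 passed 2-fold when *Vwf*-positive cells (2.20), cycling cells (2.13), cells with markers of another type (2.01) or the interferon-led subclusters (2.59) were left out. A control cluster of 139 cells with *Dcn* among its leading genes had not counted as endothelial because of *Arg1*, and it held 0 *Apln* UMIs. With each cell thinned, 3 control and 16 *Maf* LSEC-KO cells had a UMI, too few for a comparison of shares.

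*Aplnr* was close to absent from control endothelial cells, with 3 UMIs in 3 cells (0.0868 CPM, 0.0179 to 0.254). In *Maf* LSEC-KO cells it had 2636 UMIs in 721 cells (45.8 CPM, 44.0 to 47.5), and the highest cell held 42. The log2 ratio was 9.04 (7.49 to 11.32), on 3 control UMIs, it was 9.99 without the cells that carried markers of another cell type, and it ranked 5 of the 10526 genes in falling order. The receptor was seen in 16.3% of *Maf* LSEC-KO cells, and in 5.83% (5.14 to 6.58) after thinning against 0 of 290 thinned macrophage-like cells of the same library, with an upper exact limit of 1.26%. The second ligand of the receptor, *Apela*, had 0 and 1 UMIs.

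*Kcne3* encodes a single-pass accessory subunit of voltage-gated potassium channels. It rose from 129 UMIs (3.73 CPM, 3.12 to 4.44) in 85 control cells to 2405 UMIs (41.8 CPM, 40.1 to 43.5) in 835 *Maf* LSEC-KO cells, a log2 ratio of 3.48 (3.23 to 3.75). After thinning the shares of cells were 0.831% and 6.02%, and those of macrophage-like cells 0 of 187, which allows up to 1.95% by the exact interval, and 1.72%. The interferon-led control subcluster held 55.8% of the control UMIs, and without the interferon-led subclusters the log2 ratio was 4.31. *Kcnq1*, a pore-forming partner of *Kcne3*, went the other way, from 43.7 to 16.1 CPM with a log2 ratio of −1.45. Its relatives were at or near 0, with 0 UMIs of *Kcne1* and *Kcne2* in both libraries and 0 and 3 of *Kcne4*.

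*Cxcr4* encodes the receptor of the chemokine CXCL12. It had 38 UMIs (1.10 CPM, 0.778 to 1.51) in 29 control cells. In *Maf* LSEC-KO endothelium it had 881 UMIs (15.3 CPM, 14.3 to 16.3) in 492 cells, a log2 ratio of 3.80 (3.33 to 4.31). Leukocytes carry this receptor as well, and it was detected in 83.3% and 76.5% of thinned monocyte- or neutrophil-like cells and in 5.35% and 6.21% of thinned macrophage-like cells. The thinned endothelial shares, 0.208% and then 3.03% (2.54 to 3.60) for the *Maf* LSEC-KO library, lay below those of macrophage-like cells, and were therefore not read as endothelial expression by themselves. Of the *Cxcr4*-positive *Maf* LSEC-KO endothelial cells 5.28% had a UMI of the pan-leukocyte gene *Ptprc*, against 3.91% of the *Cxcr4*-negative ones, and leaving out every cell with UMIs of at least 2 markers of another cell type gave a log2 ratio of 4.02. Of its partners, the ligand *Cxcl12* rose from 2.60 to 19.6 CPM (log2 ratio 2.91) and the alternative ligand *Mif* from 49.2 to 185 CPM (1.91). The atypical receptor *Ackr3* had 10.2 and 5.62 CPM, and *Gpr182*, an atypical chemokine receptor of sinusoidal endothelium, fell from 1966 to 710 CPM (−1.47).

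*Adm* encodes adrenomedullin, a vasodilator peptide that stabilizes the endothelial barrier. It had 1186 UMIs (34.3 CPM, 32.4 to 36.3) in the control and 6199 UMIs (108 CPM, 105 to 110) in the *Maf* LSEC-KO cells, a log2 ratio of 1.65 (1.56 to 1.74), the smallest among the 6 genes. It was not rare in the control, where 18.3% of cells had a UMI against 44.0% of *Maf* LSEC-KO cells. With equal depth the shares were 7.19% and 17.3%, and those of macrophage-like cells were 3.74% and 2.41%. *Calcrl*, the receptor, fell from 724 to 288 CPM (log2 ratio −1.33) and its accessory protein *Ramp3* from 18.4 to 8.52 CPM (−1.11), while *Ramp2*, the main endothelial accessory protein, had 747 and 908 CPM (0.28, 0.26 to 0.30). *Ramp1*, a further accessory protein, was below the minimum with 9 and 83 UMIs. *Adm* is induced by hypoxia. Of 15 hypoxia-induced genes, 6 were at least 2-fold higher and 1 was lower (40.0% and 6.67%, against 11.5% and 4.44% of all genes), with a median log2 ratio of 0.74 against 0.14. Of 15 immediate early and heat shock genes, which also respond to tissue dissociation, 12 were higher and 0 lower (80.0% against the same 11.5%), with a median of 1.66. The part of either in the level of the 7 genes was not tested.

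*Pcdh17* encodes a protocadherin, a homophilic adhesion molecule, and had by far the most UMIs of the 7 genes. It had 13795 UMIs (399 CPM, 393 to 406) in the control and 88559 UMIs (1537 CPM, 1527 to 1548) in the *Maf* LSEC-KO cells, or 1.95 higher on the log2 scale (1.92 to 1.97). The transcript was present in 72.2% of control and 94.5% of *Maf* LSEC-KO cells, and the median positive cell held 3 and 15 UMIs. After thinning the shares were 49.3% and 84.7%, so that this transcript marked most of the endothelium rather than a minority of cells. Macrophage-like cells had a UMI in 18.2% and 10.7% of thinned cells. Other protocadherins differed from it: *Pcdh1* rose from 3.76 to 30.8 CPM (3.03), *Pcdh12* had 277 and 152 CPM (−0.87), and the other 7 that were listed had at most 114 UMIs in either library.

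The 7 genes were next compared among subclusters, formed in each library from the endothelial cells with the 7 genes left out, so that their levels did not enter the grouping. Subclusters of the 2 libraries were formed separately and are described by their leading genes. Some subclusters of the endothelial clusters carried genes of other cells. Control subcluster 4, 623 cells of a median of 3258 UMIs, was led by *Hbb-bs*, *Hba-a1* and other erythroid and hepatocyte genes. Control subcluster 5, 486 cells of a median of 3450.5 UMIs, had the hepatocyte markers *Alb* and *Trf* among its higher genes. In the *Maf* LSEC-KO library such subclusters were subcluster 3, 549 cells of a median of 3864 UMIs with *S100a8*, *C1qc* and *Cd5l* of macrophages and neutrophils among its leading genes, and subcluster 9, 72 cells led by platelet and hepatocyte genes such as *Ppbp* and *Fabp1*. *Esm1* was spread over most subclusters, between 71.1 and 159 CPM in 8 of 9 with these 2 included, and was at 8.55 CPM (4.89 to 13.9) in subcluster 8, 163 cells led by *Rspo3*, *Bmp4* and *Selp*, of which 89.6% had a *Vwf* UMI. *Aplnr* had its highest level there, 126 CPM (111 to 143), more than in any other subcluster and against 34.98 CPM in the largest. In subcluster 8 *Kcne3* was lowest, at 3.21 CPM (1.18 to 6.98), as were *Adm* at 36.3 CPM and *Pcdh17* at 635 CPM, which still exceeded the 350 CPM of control subcluster 6, the one led by vessel genes.

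Subcluster 2, with 1130 cells led by *H19*, *Depp1* and *Kcnj2* and with hemoglobin transcripts among its leading genes, held more UMIs than any other subcluster for 5 of the genes, with 39.1% of *Esm1*, 42.7% of *Kcne3* and 44.8% of *Cxcr4* UMIs among them. It had the highest level of *Kcne3* (67.9 CPM), *Adm* (131 CPM) and *Pcdh17* (2070 CPM). Subcluster 6, with the stellate-cell and lymphatic genes, had the highest values of *Cxcr4* (31.4 CPM, 24.7 to 39.4) and *Apln* (21.6 CPM, 16.1 to 28.5), and its *Cxcr4* interval overlapped that of subcluster 2 (23.6 to 28.8). *Aplnr* was nearly missing from subcluster 7, the 203 cells led by *Dnase1l3*, *Maf* and *Fcgr2b*, with 2 UMIs or 1.20 CPM, whereas *Esm1* was at 136 CPM in the same cells. In the control *Esm1* had 34.7 CPM in the interferon-led subcluster and 3.88 to 5.21 CPM in the other 6. *Kcne3* lay between 0.562 and 7.35 CPM there, *Adm* between 14.6 and 46.7 CPM and *Pcdh17* between 239.8 and 456 CPM. The highest *Kcne3* and the lowest *Pcdh17* value were those of control subcluster 4, with its erythroid and hepatocyte genes.

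**Figure D2:**
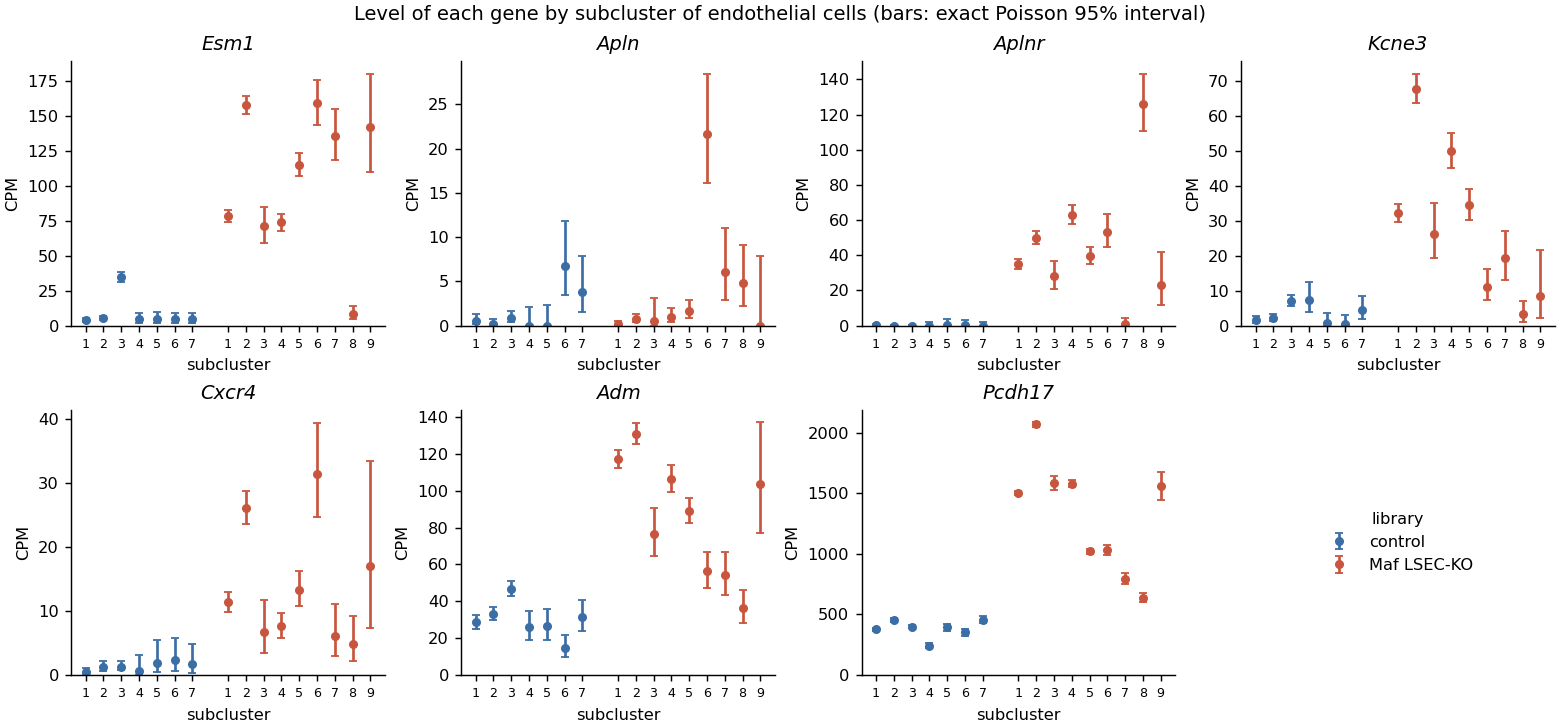
Level (CPM) of each of the 7 genes in the 7 control (blue) and 9 *Maf* LSEC-KO (red) subclusters, numbered by size within a library, with bars for exact Poisson 95% intervals and an axis of its own for each gene. *Esm1* and *Kcne3* are low and *Aplnr* is high in *Maf* LSEC-KO subcluster 8, and *Apln* stands out in subcluster 6 only.

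Some *Maf* LSEC-KO cells still had *Maf* UMIs, and the cells were compared by that number. There were 3569 cells with 0 *Maf* UMIs and 233 with at least 5, the level of 3845 of the 4262 control cells. *Esm1* was higher in the cells with at least 5 *Maf* UMIs, with 147 CPM (133 to 163) against 106 CPM (103 to 110) in cells with 0, a log2 ratio of −0.47 (−0.62 to −0.32) for cells with 0 over cells with at least 5. It was at 96.8 CPM (89.9 to 104) in cells with 1 and at 92.6 CPM (82.0 to 104) in cells with 2 to 4, so that its level did not follow the number of *Maf* UMIs in one direction. *Apln* was also higher in cells with at least 5, with 5.39 against 2.02 CPM (−1.42, −2.24 to −0.49), on 14 UMIs. *Cxcr4* was higher in cells with 0 than in cells with at least 5, with 16.6 against 5.004 CPM and a log2 ratio of 1.73 (0.95 to 2.65). *Aplnr* (46.8 against 23.9 CPM), *Kcne3* (42.8 against 26.9 CPM), *Adm* (107 against 75.1 CPM) and *Pcdh17* (1541 against 1098 CPM) were also higher in cells with 0 than in cells with at least 5, by 0.49 to 0.97 on the log2 scale. Between these ends the order varied. Cells with 1 *Maf* UMI had more *Adm* (122 CPM) and *Pcdh17* (1679 CPM) than cells with 0, and cells with 2 to 4 had more *Aplnr* (65.6 CPM). In the cells with at least 5 *Maf* UMIs all 7 genes were nevertheless above control cells with as many. The log2 ratios were 3.42 for *Esm1*, 2.95 for *Kcne3*, 1.12 for *Adm* and 1.44 for *Pcdh17*. They were 2.49 for *Apln*, on 14 UMIs, 2.25 for *Cxcr4*, on 13 UMIs, and 8.05 for *Aplnr*, on 3 control UMIs. The share of all genes higher between these cells was not computed. The *Maf* LSEC-KO cells compared had 1778 CPM of *Maf* itself against 3484 CPM in the control cells, and 60 of their 62 *Aplnr* UMIs came from 59 cells outside the *Dnase1l3*-led subcluster, whose *Maf* level was 682 CPM. *Cxcr4* had 3 UMIs in those 59 cells (log2 ratio 1.47, −0.87 to 3.14). Whether single cells with *Maf* UMIs had kept 1 or both alleles, or carried the RNA of other cells, was not tested.

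**Figure D3:**
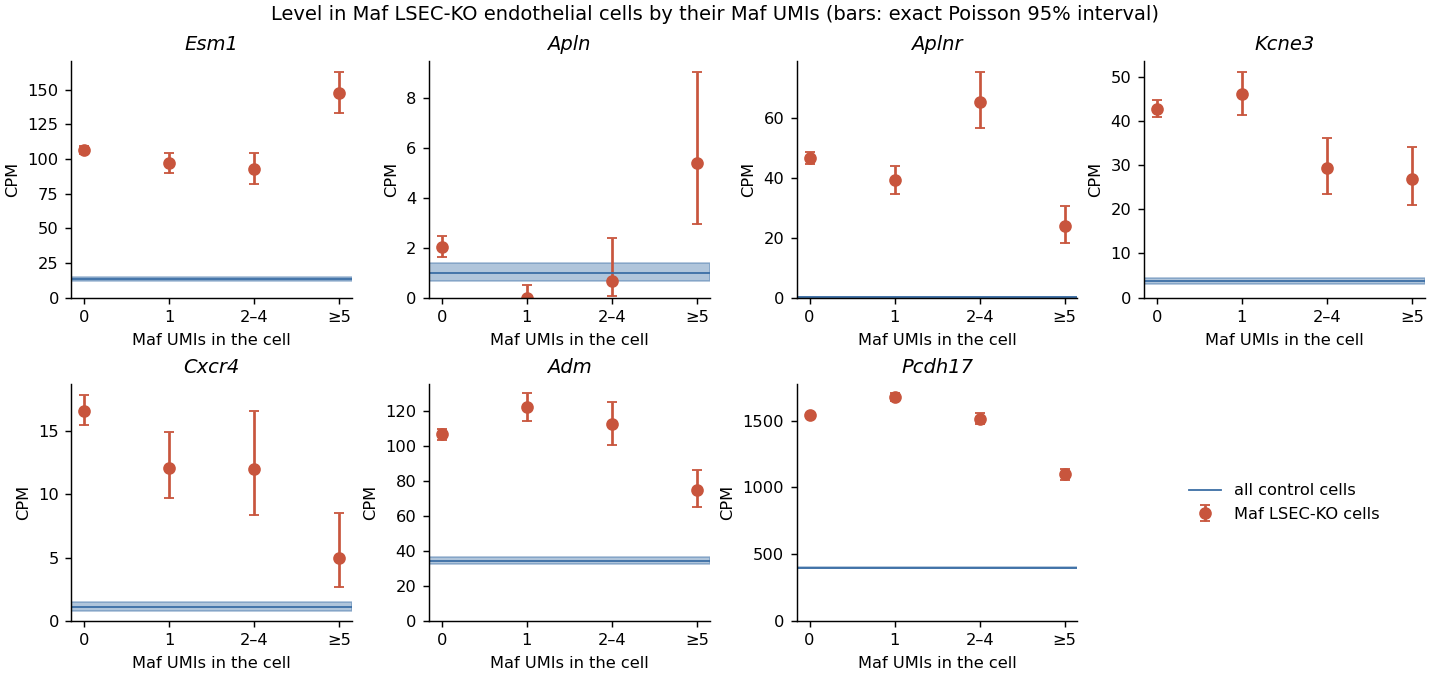
Level (CPM) of each gene in *Maf* LSEC-KO endothelial cells with 0, 1, 2 to 4 or at least 5 *Maf* UMIs (red points, bars for exact Poisson 95% intervals) and in all control endothelial cells (blue line and band). For 6 of the genes every red point lies above the blue band, and 5 of the genes, all but *Esm1* and *Apln*, are lowest in cells with at least 5 *Maf* UMIs.

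Tip cells usually do not divide, so cycling and other *Maf* LSEC-KO cells were set side by side. *Esm1* (104 and 108 CPM) and *Adm* (104 and 109 CPM) differed by less than their counting error between 925 cycling and 3508 other cells. *Aplnr* was higher in cycling cells, with 55.7 against 40.9 CPM and a log2 ratio of 0.45 (0.33 to 0.56), and *Cxcr4* lower, with 11.2 against 17.3 CPM and a log2 ratio of −0.63 (−0.86 to −0.41). Smaller differences were seen for *Kcne3*, higher in cycling cells (0.16, 0.04 to 0.28), and *Pcdh17*, lower (−0.22, −0.24 to −0.20). The interval of *Apln* crossed 0 (0.12, −0.49 to 0.72). Without cycling cells in either library the log2 ratios between the libraries were 2.97 for *Esm1* and 4.04 for *Cxcr4*. Of all 7 genes, *Cxcr4* alone was higher in the 1182 *Vwf*-positive than in the 3251 *Vwf*-negative *Maf* LSEC-KO cells (22.2 against 12.3 CPM, log2 ratio 0.85, 0.65 to 1.04), and the other 6 were lower by 0.09 to 0.90 on the log2 scale. The share of all genes higher or lower was computed neither for this split nor for that by cycling, so these counts have no background.

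Tip cells would be marked by several of these genes at once, so the number of the 7 genes with a UMI was counted in each thinned cell. This number rises with the share of each single gene, and *Pcdh17* alone was present in 49.3% of control and 84.7% of *Maf* LSEC-KO thinned cells. The share expected from the single shares was not computed, so the shares below do not by themselves show that the genes go together. At least 3 were present in 16 of 3852 control cells (0.415%, 0.238 to 0.674) and in 308 of 4219 *Maf* LSEC-KO cells (7.30%, 6.53 to 8.13). Of the 16 control cells 10 lay in the interferon-led subcluster, and without the interferon-led subclusters the shares were 0.204% (6 cells) and 8.22%. Without thinning the shares were 2.16% and 35.2%, the *Maf* LSEC-KO cells being deeper. At least 4 were present in 0 control cells, with an upper exact limit of 0.0957%, and in 51 *Maf* LSEC-KO cells (1.21%), and 6 or 7 in 0 thinned cells of either. The share with at least 3 was 11.2% (9.38 to 13.1) in *Maf* LSEC-KO subcluster 2, 5.202% (4.05 to 6.56) in subcluster 1 and 1.27% (0.155 to 4.53) in subcluster 8.

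Whether the genes met in the same cells more often than their single shares give was read from pairs, as the number of thinned cells with both over the number expected from the product of the 2 shares. In *Maf* LSEC-KO cells *Esm1* and *Kcne3* met in 71 cells against 31.8 expected, a ratio of 2.23 (1.74 to 2.82). *Esm1* and *Cxcr4* met in 33 against 16.02 (2.06, 1.42 to 2.89), *Kcne3* and *Adm* in 84 against 43.9 (1.91, 1.53 to 2.37) and *Esm1* and *Adm* in 126 against 91.2 (1.38, 1.15 to 1.64). *Kcne3* and *Cxcr4*, each of which went with *Esm1*, were not seen together more often, with 6 cells against 7.71 (0.779, 0.286 to 1.69). *Aplnr* had intervals that crossed 1 with each of these genes. It met *Esm1* in 34 cells against 30.8 (1.10, 0.765 to 1.54) and *Cxcr4* in 7 against 7.46 (0.938, 0.377 to 1.93). *Pcdh17*, present in most cells, had ratios from 1.03 to 1.08 with these 5 genes, and pairs with *Apln* rested on at most 5 cells apart from *Pcdh17*, among them 4 with *Kcne3* against 0.963 expected and 3 with *Cxcr4* against 0.485. Within the 2 largest subclusters alone *Esm1* had ratios of 2.47 with *Kcne3*, 1.81 with *Cxcr4* and 1.45 with *Adm*, and *Kcne3* with *Adm* had 1.90. In the control *Esm1* and *Kcne3* met in 6 cells against 0.507 expected.

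**Figure D4:**
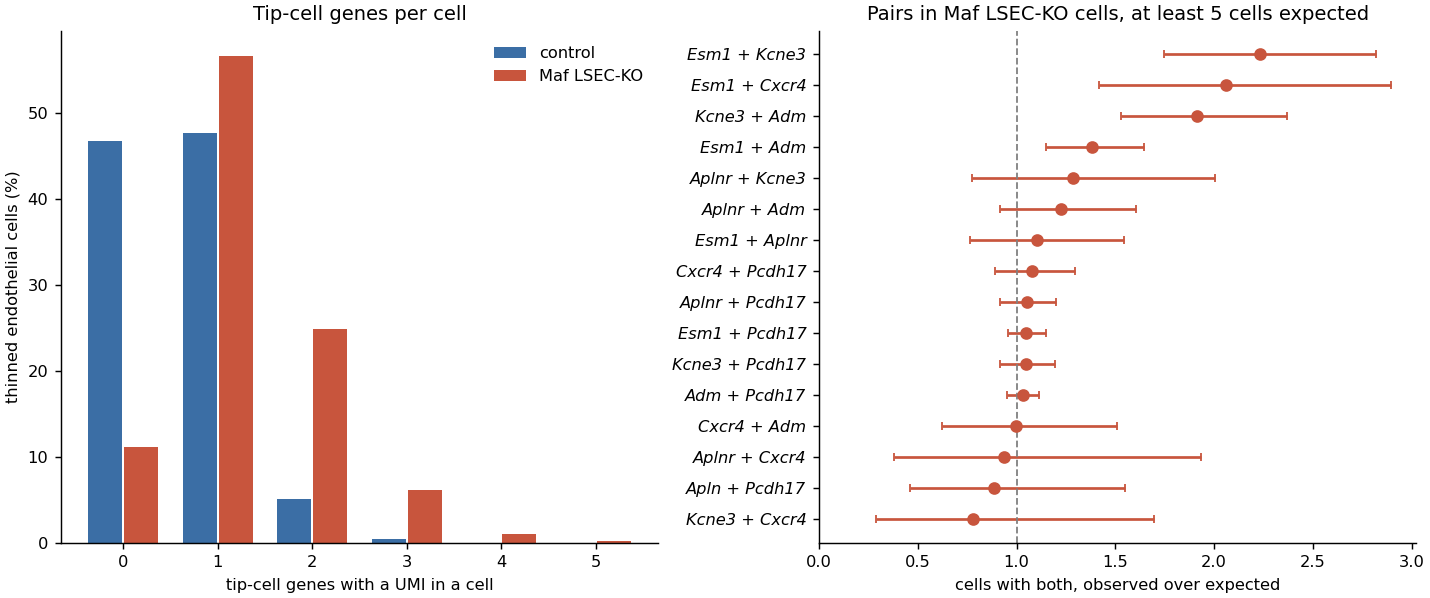
Share of thinned endothelial cells with a UMI of 0 to 5 of the 7 genes in the control (blue) and *Maf* LSEC-KO (red) library (left), and, for the pairs with at least 5 cells expected, the ratio of observed to expected *Maf* LSEC-KO cells with both genes with exact Poisson 95% intervals (right). The intervals of 4 pairs, *Esm1* with *Kcne3*, *Cxcr4* and *Adm* and *Kcne3* with *Adm*, lie to the right of 1, and those of the other pairs cross the dashed line.

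Over the 4219 thinned *Maf* LSEC-KO cells the genes most like each of the 7 were sought among 6486 genes with a UMI in at least 5% of the cells, by Pearson's r of log counts. The cells shared 1 library and 1 depth, and most correlations were weak, so they are given as a description. *Pcdh17* was most like *Kdr* (r = 0.31), the main receptor of vascular endothelial growth factor, and *Nrp1* (0.23), its coreceptor. *Kcne3* was most like *Odc1* (0.26), the entry enzyme of polyamine synthesis, followed by *Esm1* (0.16), and *Esm1* was most like *Kcne3* (0.16), *Abcc9* and *Prdm1* (0.14 each). *Cxcr4* was most like the arterial genes *Efnb2* (0.15) and *Dll4* (0.13), *Adm* most like *Kcne3* (0.13) and *Odc1* (0.12), *Aplnr* most like *Fabp4* (0.10) and *Apln* most like *C1qtnf9* (0.13).

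Other tip-cell genes, from a list of 35 of which 34 had at least 5 CPM, were higher by at least 2-fold in 12 cases and lower in 4, against the 11.5% and 4.44% of all genes, with a median log2 ratio of 0.51 against 0.14. The count was 8 of 31 without the subcluster led by stellate-cell and lymphatic genes, 8 of 32 with the total of every gene as the scale and 9 of 33 under median-of-ratios or TMM scaling. Of the 12, *Igfbp3*, *Lamb1*, *Rgcc* and *Nid2* reached 5 CPM only in the *Maf* LSEC-KO library, where they were high. No control cells were left out with the stellate-cell and lymphatic subcluster. The genes that fell below the minimum without it were therefore among these, and their ratios below include it. The largest differences were those of *Igfbp3*, an insulin-like growth factor binding protein, with 5 and 886 UMIs (log2 ratio 6.73), *Lamb1*, a laminin chain, with 13 and 356 UMIs (4.04), *Rgcc*, a cell cycle regulator, with 11 and 300 UMIs (4.03), and *Cd34*, a sialomucin of continuous capillaries, with 33.1 and 378 CPM (3.52). *Pdgfb*, the growth factor by which tip cells recruit pericytes, rose from 15.9 to 130 CPM (3.04). *Dll4*, the Notch ligand of tip cells, had 128 and 188 CPM (0.55), and *Angpt2*, the destabilizing angiopoietin, 16.7 and 18.8 CPM (0.17). The lowest were the protease *Mmp14* (191 and 66.7 CPM, −1.52), the activin subunit *Inhbb* (41.96 and 15.3 CPM, −1.45) and the receptors *Flt4* (727 and 326 CPM, −1.16) and *Nrp2* (536 and 261 CPM, −1.04), of which *Flt4* is also a mark of healthy sinusoids.

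Stalk-cell genes, mostly parts and targets of Notch and bone morphogenetic protein signalling, were higher in 4 of the 21 of 23 genes that passed the minimum and lower in 1 (19.0% and 4.76%, against 11.5% and 4.44% of all genes), with a median log2 ratio of 0.41. *Hey1* reached 5 CPM only in the *Maf* LSEC-KO library. The highest were *Vegfc* (21.8 and 96.9 CPM, 2.15), a growth factor for lymphatic endothelium, the Notch targets *Hey1* (2.55 and 8.72 CPM, 1.77) and *Nrarp* (36.1 and 96.8 CPM, 1.42), and *Id1* (103 and 275 CPM, 1.42). The lowest were *Lfng*, which tunes Notch receptors (42.8 and 12.4 CPM, −1.79), *Tek*, the angiopoietin receptor (562 and 282 CPM, −0.996), *Eng* (1947 and 1357 CPM, −0.52) and the decoy receptor *Flt1* (1150 and 872 CPM, −0.40). Counts, medians and background shares of both lists are descriptions of 2 libraries, and no difference between the lists was tested.

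**Figure D5:**
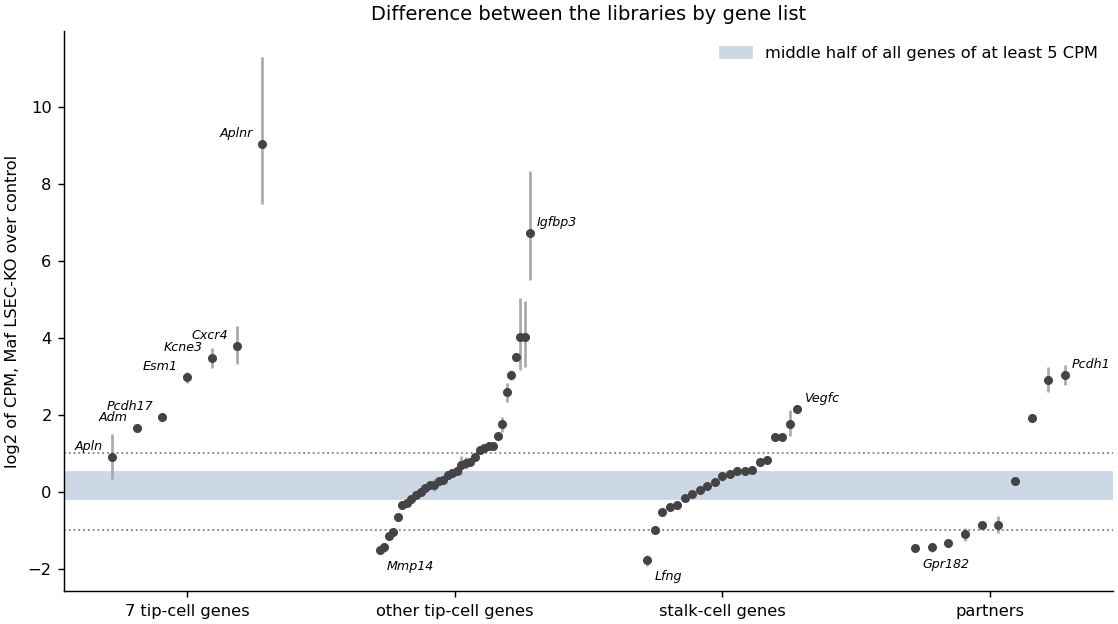
Log2 of the ratio of CPM in *Maf* LSEC-KO over control endothelial cells for the 7 genes, the other tip-cell genes, the stalk-cell genes and the ligands, receptors and relatives of the 7, each point a gene with its 95% counting interval and, except for the 7, at least 5 CPM in either library. The band spans the middle 50% of all genes and the dotted lines mark 2-fold. All 7 genes lie above 0 and 6 of them above the upper dotted line.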

How the data were processed

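The authors prepared 1 library per condition with the 10x 3′ kit and, per the labels, used Cell Ranger 6.0.2, Seurat 5.0.1 and the mm10 genome. The deposited matrices hold UMI counts per gene and cell barcode, not normalized, and the subtraction of empty-droplet means that the authors describe is not part of them and was not repeated. There were 47681895 UMIs over 5664 control barcodes and 89872764 over 7091 *Maf* LSEC-KO barcodes.

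A barcode was used when it reached 1500 UMIs and 750 detected genes, which left 4961 and 5423. Each library was clustered alone (Seurat 5.3.0, 2000 variable genes, 16 and 20 components, resolution 0.3). A cluster counted as endothelial when *Pecam1* and at least 7 of 14 endothelial markers were each seen in at least 50% of its cells and none of *Adgre1*, *Clec4f*, *Ptprc*, *Cd52*, *Acta1* and *Arg1* in over 50%, and other clusters were named "-like" from marker lists. Scrublet (scanpy 1.11.5) set a limit that marked 0 cells, so the highest scores were removed at a rate set by the number of barcodes (4.53% and 5.67%), 173 and 190 endothelial cells. The cells were clustered again without the 7 genes. CPM is UMIs per 1000000 UMIs outside mitochondrial and ribosomal protein genes, 34553483 and 57600205 in all. Intervals of 95% are exact Poisson (levels), conditional binomial (ratios) and Clopper-Pearson (shares), computed with scipy 1.17.1, and cover counting error only. A gene counted as called at a ratio of at least 2 with at least 5 CPM in either library for the lists, without this minimum for the 7 genes. Shares at equal depth came from cells drawn down to 2700 UMIs, leaving out 410 control and 214 *Maf* LSEC-KO cells. The ratio step was tested on simulated data. The members and all lists were chosen with earlier results of these data known. Genes named were the 7, their listed partners (1 is not reported here), the 4 highest and 4 lowest of the tip-cell and stalk-cell lists with *Dll4*, *Angpt2* and *Pdgfb*, and the leading genes among the 5 most like each of the 7 by Pearson's r. Alternatives covered scaling, including edgeR 4.0.16, cell filters, depth and limits.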

Additional observations from a re-analysis of the deposited data

Results flagged for a closer look

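Some of the 7 genes had UMIs outside the endothelium. *Pcdh17* was at 165 CPM in macrophage-like cells of the *Maf* LSEC-KO library and 110 CPM in those of the control, with 381 UMIs in 83 of 390 cells and 62 in the highest cell. It was at 181 CPM in T- or NK-like cells against 45.6 CPM in the control, where 29 of the 53 *Maf* LSEC-KO UMIs were in 1 of 60 cells. *Adm* was at 175 CPM in B-cell-like cells against 33.3 CPM, where 25 of 37 UMIs were in 1 of 39 cells. *Kcne3* was at 116 CPM in the 37 cholangiocyte-like cells of the *Maf* LSEC-KO library, with 61 UMIs in 23 cells and at most 11 in 1 cell, and *Pcdh17* at 15.3 CPM in the same cells, with 8 UMIs. No control cluster was named cholangiocyte-like, but an unnamed one of 139 cells shared *Spp1*, *Tm4sf4*, *Krt8* and *Cp* with it among the leading genes, and *Kcne3* was there at 11.7 CPM with 16 UMIs. These values have no replicate, and whether they are expression in those cells, mixed droplets or free RNA was not tested.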

How the results depend on the processing

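With 1 library per condition no library could be left out. No paired analysis was possible because each group has a single sample. The count of members at least 2-fold apart, 6, was 6 or 7 under all scalings and cell filters run, 7 at a ratio of 1.5 and 4 at a ratio of 4. Over the 15 alternatives the log2 ratio lay between 2.80 and 4.70 for *Esm1*, 0.02 and 3.14 for *Apln*, 8.44 and 9.99 for *Aplnr*, 3.11 and 4.31 for *Kcne3*, 3.45 and 4.22 for *Cxcr4*, 1.47 and 1.82 for *Adm* and 1.77 and 2.02 for *Pcdh17*, and none reversed. The other tip-cell genes counted as higher were 6 of 34 instead of 12 at a ratio of 4, beside 4.38% of all genes. With a minimum of 50 CPM they were 7 of 25, beside 7.27% of all genes. For the stalk-cell genes the count was 1 of 21 instead of 4 at a ratio of 4, beside the same 4.38%. The share of *Maf* LSEC-KO cells with at least 3 of the 7 genes was 8.22% without the interferon-led subclusters, 35.2% without thinning and 32.2% for at least 2 genes. The control share was 0.237% without cells carrying markers of another type, 0.204% without the interferon-led subclusters, 2.16% without thinning and 5.56% for at least 2 genes. Scaling and the mean of CPM over cells give no value for these shares. Leaving out the subclusters led by stellate-cell and lymphatic genes, by interferon genes or of a median under 5000 UMIs was chosen after seeing the data. The *Aplnr* ratio is limited by 3 control UMIs.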
